A study of Mus musculus with 2 samples.

Results

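Axon guidance receptors and ligands were described in 2 mouse melanoma cultures, B16/BL6 and B16. The genes were the symbols that name an Eph receptor, an ephrin, a semaphorin, a plexin, a neuropilin, a Slit, a Robo receptor, a netrin or a Dpysl protein. This rule used names and no measured value, and it found 68 of the 23284 symbols in both files. The study searched for genes related to metastasis by comparing the expression of the cultures. B16/BL6 is a subline of B16 that was selected for invasion, and B16 arose as a melanoma of the C57BL/6 strain. The labels name no added allele or agent for either line. B16/BL6 cells were grown in RPMI and B16 cells in DMEM, both with 10% FBS and 1% penicillin/streptomycin, so line and medium cannot be told apart. There was 1 library of each line, made from RNA of a bulk culture, in which fewer cells with a transcript and less transcript per cell cannot be told apart. Without replicates, values carry no error, the lines were compared without a test, and p-values are absent.

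These families guide growing axons, and they also act in the neural crest, from which melanocytes arise. Semaphorins are secreted or membrane ligands that bind plexins, and most class 3 semaphorins need a neuropilin as co-receptor. Dpysl proteins, also called collapsin response mediator proteins, are intracellular and link semaphorin signals to microtubules. Ephrins are bound to the membrane and activate Eph receptor tyrosine kinases on neighbouring cells, with reverse signals into the ephrin-bearing cell. Slits bind Robo receptors, and netrins bind receptors of the Dcc and Unc5 families.

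Levels are in FPKM, a fragment count per kilobase and per library size, as the authors deposited them. Differences are B16/BL6 minus B16 in log2(FPKM + 1), and higher or lower at 2-fold means a difference of 1 or more in size. This scale understates the change of low genes, so plain ratios of FPKM are given for some genes where both values were above 0. For the rest, both FPKM values show the change. All 8 melanocyte markers exceeded 1 FPKM in both libraries, and 2 of them passed 2-fold toward B16/BL6. Of all genes at 1 FPKM or more in both libraries, 3.99% passed in either direction. Tyr, which encodes the pigment enzyme tyrosinase, was at 164 FPKM in B16/BL6 and 10.6 FPKM in B16, a difference of 3.83, and Pmel, a melanosome protein gene, at 4651 FPKM in B16/BL6 and 2166 FPKM in B16, a difference of 1.10. The differences of the other 6 lay between -0.23 (Sox10) and 0.70 (Mlana), with Mitf at -0.10. Of 7 neuronal markers, Tubb3 and Map2 reached 1 FPKM, and Rbfox3, Stmn2, Snap25 and Nefl were listed at 0 in both libraries. Of the 5 Schwann cell markers reported, 4 reached 1 FPKM. Mbp was at 620 FPKM in B16/BL6 and 1.45 FPKM in B16, Pmp22 was at 115 FPKM in B16/BL6 and 25.2 FPKM in B16, S100b and Erbb3 were within 2-fold, and Ngfr was listed at 0 in B16/BL6 and at 0.113 FPKM in B16. The part of these melanocyte and Schwann cell markers in the differences below was not tested. None of 19 endothelial, fibroblast, leukocyte and keratinocyte markers reached 1 FPKM. The deposited files give no depth. The steps of the lowest values put B16/BL6 at 1.10 times the depth of B16, and rough absolute estimates were 11100000 fragments in B16/BL6 and 10000000 in B16.

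The 3 detected secreted semaphorin genes that lie near each other on chromosome 5 were near 0 in B16/BL6, and the Eph receptor genes Epha4 and Epha7 differed in opposite directions. Their promoters are shown with that of Sema6d, the guidance gene with the largest positive difference. Each sequence is the RefSeq window of GRCm38.p6 from 250 bases before to 50 bases after the annotated start, written 5′ to 3′ on the strand of the gene, with CG dinucleotides in capitals.
Sema6d, chr2:124089719-124090018, plus strand: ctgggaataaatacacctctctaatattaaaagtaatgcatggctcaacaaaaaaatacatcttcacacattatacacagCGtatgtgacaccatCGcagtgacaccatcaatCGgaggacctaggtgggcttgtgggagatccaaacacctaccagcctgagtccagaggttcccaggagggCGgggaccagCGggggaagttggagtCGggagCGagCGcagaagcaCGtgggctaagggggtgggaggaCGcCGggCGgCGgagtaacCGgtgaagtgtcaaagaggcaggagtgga
Sema3d, chr5:12382916-12383215, plus strand: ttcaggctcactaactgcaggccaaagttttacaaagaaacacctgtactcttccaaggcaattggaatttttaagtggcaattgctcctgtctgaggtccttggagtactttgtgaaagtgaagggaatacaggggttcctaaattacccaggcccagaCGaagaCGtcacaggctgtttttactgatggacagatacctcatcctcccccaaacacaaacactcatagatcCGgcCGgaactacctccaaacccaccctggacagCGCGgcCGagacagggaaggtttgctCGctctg
Sema3e, chr5:14025026-14025325, plus strand: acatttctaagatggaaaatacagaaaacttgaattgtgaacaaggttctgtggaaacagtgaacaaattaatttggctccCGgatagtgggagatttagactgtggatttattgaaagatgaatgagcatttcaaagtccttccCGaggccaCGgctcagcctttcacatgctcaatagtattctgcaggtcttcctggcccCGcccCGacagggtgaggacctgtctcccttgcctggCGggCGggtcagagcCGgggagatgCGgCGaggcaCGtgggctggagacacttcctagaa
Sema3c, chr5:17574566-17574865, plus strand: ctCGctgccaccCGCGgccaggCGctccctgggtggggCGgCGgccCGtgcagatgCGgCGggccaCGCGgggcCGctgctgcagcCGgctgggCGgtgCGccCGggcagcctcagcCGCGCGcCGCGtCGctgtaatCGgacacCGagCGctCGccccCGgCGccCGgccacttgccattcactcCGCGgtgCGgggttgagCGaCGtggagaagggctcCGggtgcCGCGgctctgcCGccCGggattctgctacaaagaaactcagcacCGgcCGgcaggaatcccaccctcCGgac
Epha4, chr1:77515039-77515338, minus strand: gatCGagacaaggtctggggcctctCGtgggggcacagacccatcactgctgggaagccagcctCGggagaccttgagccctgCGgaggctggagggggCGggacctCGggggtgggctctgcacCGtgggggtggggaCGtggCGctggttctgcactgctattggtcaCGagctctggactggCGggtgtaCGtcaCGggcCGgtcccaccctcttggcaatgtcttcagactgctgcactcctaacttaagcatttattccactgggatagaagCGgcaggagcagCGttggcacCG
Epha7, chr4:28812881-28813180, plus strand: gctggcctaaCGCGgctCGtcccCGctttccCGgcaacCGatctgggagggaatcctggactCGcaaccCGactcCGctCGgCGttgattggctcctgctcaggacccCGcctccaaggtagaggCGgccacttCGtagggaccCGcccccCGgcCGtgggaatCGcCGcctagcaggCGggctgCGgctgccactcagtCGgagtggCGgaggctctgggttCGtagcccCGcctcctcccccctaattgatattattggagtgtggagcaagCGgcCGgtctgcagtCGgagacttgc
The promoter of Sema3c had 42 CG dinucleotides in 300 bases, that of Epha7 28, of Epha4 17, of Sema6d 14, of Sema3e 11 and of Sema3d 8. The neighbouring genes therefore had unlike promoters by this measure. The median was 22 over the 7764 promoters matched to genes at 1 FPKM or more, and 19 over the 29 guidance genes at that level with a promoter in the table. The E-box CACGTG, a sequence that the melanocyte factor Mitf can bind, was searched on both strands. It was present in the Sema6d and Sema3e windows shown, and in 10.9% of the promoters of genes at 1 FPKM or more. Of the guidance gene promoters, 1 of 29 at that level had it (3.45%), and 4 of all 57 (7.02%). The related CATGTG is a different hexamer and cannot be the same match. It was present in the Sema3e window and in 7.65% of the promoters of genes at 1 FPKM or more. Of the guidance gene promoters, 3 of 29 at that level had CATGTG (10.3%), and 5 of all 57 (8.77%).

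Of the 68 genes, 34 reached 1 FPKM in either library, 21 were above 0 but below 1 FPKM in both, and 13 were listed at 0 in both. Of the 34, 7 passed 2-fold toward B16/BL6, 5 passed it toward B16, and 22 lay within 2-fold. Over all 10709 genes at 1 FPKM or more, 3.31% were at least 2-fold higher and 3.16% at least 2-fold lower, or 6.46% in either direction, against 35.3% of the 34 guidance genes. Low genes differ more often: among genes averaging under 5 FPKM over the libraries the share in either direction was 13.8%, and 8 of 16 guidance genes in that range passed. From 5 FPKM the share was 4.39%, and 4 of 18 guidance genes passed.

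The minimum itself bears on these counts, since a gene that reached 1 FPKM in a single library had to differ to some degree. Of the 34 guidance genes, 7 reached 1 FPKM in B16/BL6 only and 5 in B16 only, and 8 of these 12 passed 2-fold. Among the 22 at 1 FPKM or more in both libraries, 2 were higher and 2 lower, where 3.99% of all such genes passed in either direction. The median difference of the 34 was 0.40, beside 0.01 over all genes at 1 FPKM or more. On the TPM scale, in which every library sums to 1000000, the median of all genes was -0.16 and that of the guidance genes 0.25.

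**Figure D1:**
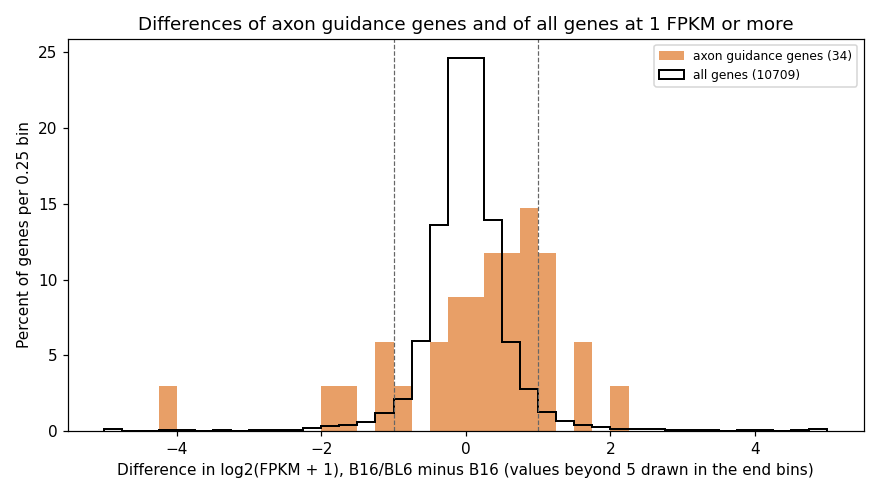
The histogram shows the difference in log2(FPKM + 1), B16/BL6 minus B16, as percent of genes per bin, for the 34 axon guidance genes (filled) and all 10709 genes at 1 FPKM or more (black line), with dashed lines at 2-fold. Of the guidance genes, 7 lie beyond the right line and 5 beyond the left one, and their median is 0.40.

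**Figure D2:**
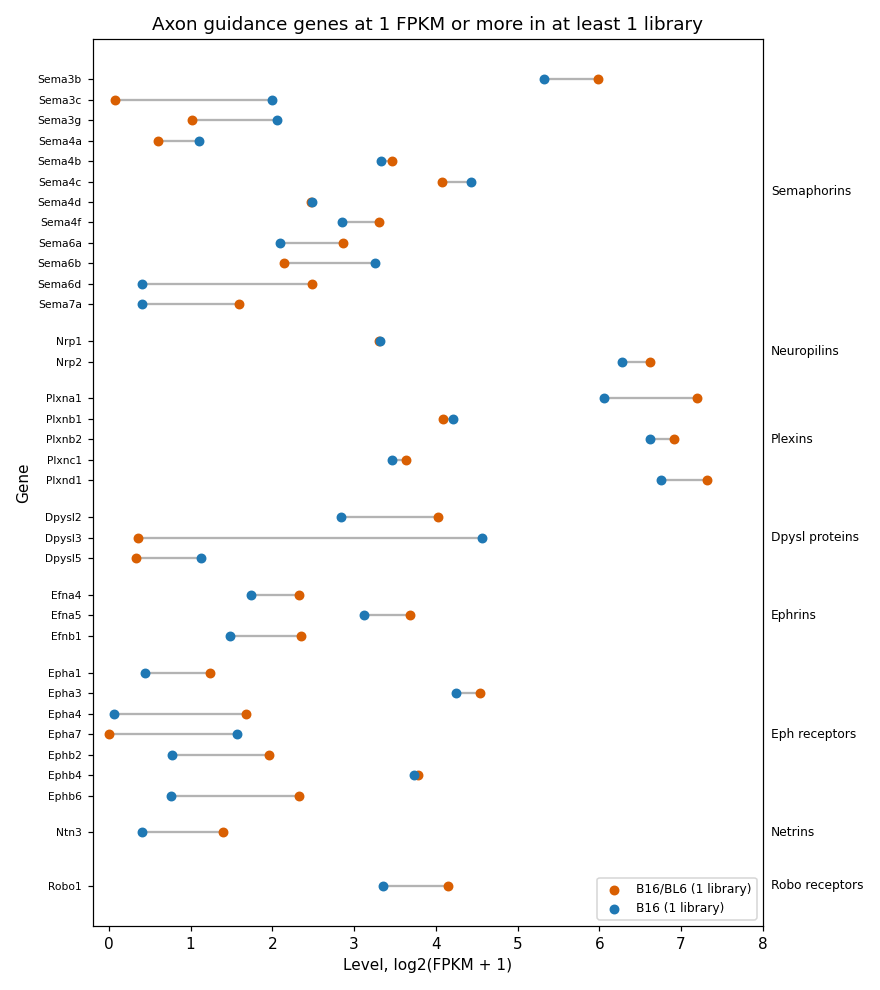
Each row is a guidance gene that reached 1 FPKM in either library, ordered by family, with its log2(FPKM + 1) in the single B16/BL6 library (orange) and the single B16 library (blue) joined by a grey line. Plxnd1, Plxna1, Plxnb2 and Nrp2 stand at the right, and the longest line is that of Dpysl3, at 0.277 FPKM in B16/BL6 and 22.6 FPKM in B16.

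Semaphorin genes passed 2-fold in both directions. Of 20 semaphorin genes, 12 reached 1 FPKM, 2 were higher in B16/BL6, 3 were lower, and the median difference was 0.06. Over all genes at 1 FPKM or more, 3.31% were at least 2-fold higher and 3.16% at least 2-fold lower. Sema6d and Sema7a reached 1 FPKM in B16/BL6 only and Sema3c and Sema4a in B16 only, so the minimum bears on their directions. The summed level of the semaphorin genes was 120 FPKM in B16/BL6 and 101 FPKM in B16. The sum over all symbols was also larger in B16/BL6, at 563451 FPKM beside 500485 FPKM in B16, which bears on every family sum. Sema3b, a secreted ligand of neuropilins, was the most abundant, at 62.0 FPKM in B16/BL6 and 39.0 FPKM in B16, a ratio of 1.59. It made up 51.8% of the semaphorin sum in B16/BL6 and 38.5% in B16.

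The other class 3 genes were low in B16/BL6. Sema3c, a secreted ligand of neuropilin and plexin complexes (chromosome 5, 17574816 to 17730268 in mm10), was at 0.0519 FPKM in B16/BL6 and 2.98 FPKM in B16, 57.4-fold lower. By the rough depths and the longest coding transcript, this is about 3.2 fragments in B16/BL6 and 160 in B16. Sema3g, a ligand of neuropilin-2, was at 1.01 FPKM in B16/BL6 and 3.15 FPKM in B16, 3.11-fold lower, with a difference of -1.04 on the log2(FPKM + 1) scale. Sema3e, which binds plexin-D1 without a neuropilin, stayed below 1 FPKM, at 0.0123 FPKM in B16/BL6 and 0.599 FPKM in B16. Sema3d was at 0.0130 FPKM in B16/BL6 and 0.287 FPKM in B16. For Sema3e this is about 0.94 fragments in B16/BL6 and 41 in B16, and for Sema3d about 0.91 in B16/BL6 and 18 in B16, so each rested on about a single fragment in B16/BL6. Sema3f was at 0.232 FPKM in B16/BL6 and 0.313 FPKM in B16, and Sema3a was listed at 0 in both.

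Sema3d, Sema3a, Sema3e and Sema3c follow one another within 5.35 megabases of chromosome 5 (12383161 to 17730268 in mm10). The span holds 12 other symbols of the files, and 0 of them reached 1 FPKM. The nearest genes at 1 FPKM or more after Sema3c, Magi2 (1.46 FPKM in B16/BL6 and 1.18 FPKM in B16) and Phtf2 (5.37 FPKM in B16/BL6 and 7.96 FPKM in B16), were within 2-fold. On the other side, the nearest was 9330182L06Rik, at 0.353 FPKM in B16/BL6 and 2.52 FPKM in B16, a difference of -1.38, followed by Dmtf1 at 8.24 FPKM in B16/BL6 and 9.22 FPKM in B16. The median difference of the 680 genes at 1 FPKM or more on chromosome 5 was -0.01. The lower levels were thus seen in the 3 detected semaphorin genes and in 9330182L06Rik. The other flanking genes shown were within 2-fold except for 4930420K17Rik, at 28.4 FPKM in B16/BL6 and 12.1 FPKM in B16. Sema3d and Sema3e stayed below 1 FPKM in both libraries. In that range 18 of 21 detected guidance genes were lower in B16/BL6, both among them, beside 54.3% of all 3224 such genes. The starts of 9330182L06Rik and Magi2 lie at -3.12 and 6.84 megabases from that of Sema3d. Whether the lower levels were particular to this span was not tested.

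**Figure D3:**
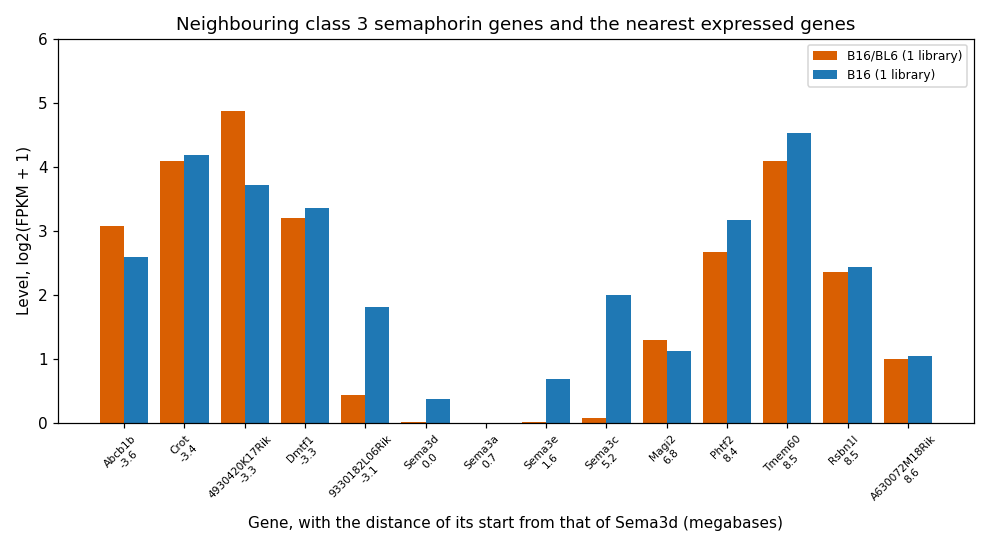
Paired bars give log2(FPKM + 1) in the single B16/BL6 library (orange) and the single B16 library (blue) for 4 neighbouring class 3 semaphorin genes and the 5 nearest genes at 1 FPKM or more on each side, in chromosomal order with distances in megabases from the start of Sema3d. Sema3d, Sema3e and Sema3c have bars close to 0 in B16/BL6 and visible bars in B16, while Sema3a is listed at 0 in both.

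The membrane semaphorins of class 4 were within 2-fold. Sema4c, a ligand of plexin-B2, was at 15.9 FPKM in B16/BL6 and 20.5 FPKM in B16, and Sema4d, the ligand of plexin-B1, at 4.53 FPKM in B16/BL6 and 4.58 FPKM in B16. Sema4b was at 10.0 FPKM in B16/BL6 and 9.06 FPKM in B16, and Sema4f at 8.91 FPKM in B16/BL6 and 6.22 FPKM in B16. Sema4a was at 0.520 FPKM in B16/BL6 and 1.15 FPKM in B16, a ratio past 2-fold that the pseudocount kept at a difference of -0.50. Sema4g was below 1 FPKM, at 0.1002 FPKM in B16/BL6 and 0.995 FPKM in B16, just under the minimum. By ratio, the abundant members thus differed little, and the scarce Sema4a and Sema4g were lower in B16/BL6.

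Class 6 semaphorins, transmembrane ligands of class A plexins, exchanged their order. Sema6d was at 4.58 FPKM in B16/BL6 and 0.319 FPKM in B16, a ratio of 14.3 and a difference of 2.08, from about 330 fragments in B16/BL6 and 21 in B16. Sema6b was at 3.43 FPKM in B16/BL6 and 8.53 FPKM in B16, 2.49-fold lower. Sema6a was at 6.28 FPKM in B16/BL6 and 3.25 FPKM in B16, a difference of 0.78 that passed 2-fold (1.07) once the median of its chromosome was subtracted. In B16/BL6, Sema6a was the highest of the class and Sema6b the lowest of these 3, whereas in B16 Sema6b was the highest and Sema6d the lowest. The fourth member, Sema6c, had 0.0623 FPKM in B16/BL6 and 0.0687 FPKM in B16, which is the ratio that equal fragment numbers give. Sema7a, a ligand of plexin-C1 that is anchored to the membrane by a lipid, was at 2.01 FPKM in B16/BL6 and 0.325 FPKM in B16, a ratio of 6.18. Both class 5 genes, Sema5a and Sema5b, were listed at 0.

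Among receptors of semaphorins, Plxnd1, Plxna1, Plxnb2 and Nrp2 were the 4 most abundant guidance genes in both libraries. Of 9 plexin genes, 5 reached 1 FPKM, 1 was higher in B16/BL6 and 0 were lower. The shares over all genes at 1 FPKM or more were 3.31% higher and 3.16% lower. The summed plexin level was 452 FPKM in B16/BL6 and 299 FPKM in B16. Plxna1, a receptor for Sema6d and, with neuropilins, for class 3 semaphorins (chromosome 6, 89316313 to 89362613 in mm10), was at 146 FPKM in B16/BL6 and 65.4 FPKM in B16. Its ratio was 2.23 and its difference 1.15, from about 15000 fragments in B16/BL6 and 5900 in B16. The difference was 0.98 on the TPM scale and 0.96 after subtracting the median of chromosome 6, both just under 2-fold. Of the exonic bases of Plxna1, 10.7% are shared with the gene Gm26811, counting overlaps on either strand. In B16/BL6, the level of Plxna1 was above that of 94.2% of genes at 1 FPKM or more, and in B16 above that of 86.5%.

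The remaining class A plexins were scarce in both libraries. Plxna4, a receptor for Sema6a and Sema6b, was listed at 0 in B16/BL6 and was at 0.636 FPKM in B16, about 82 fragments. Plxna2 was listed at 0 in B16/BL6 and was at 0.0669 FPKM in B16, and Plxna3 was at 0.353 FPKM in B16/BL6 and 0.444 FPKM in B16. Plxna1 alone accordingly made up 99.8% of the class A sum in B16/BL6 and 98.3% in B16.

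Plxnd1, the receptor for Sema3e, was the most abundant guidance gene of both libraries, at 159 FPKM in B16/BL6 and 107 FPKM in B16, a difference of 0.56. Its ligand gene Sema3e was thus close to 0 in B16/BL6 and also below 1 FPKM in B16, beside the highest receptor level in both libraries. Plxnb2 was at 119 FPKM in B16/BL6 and 97.4 FPKM in B16, and Plxnb1 at 16.05 FPKM in B16/BL6 and 17.5 FPKM in B16. Plxnc1, the receptor for Sema7a, was at 11.5 FPKM in B16/BL6 and 10.1 FPKM in B16, and its difference of 0.17 became -0.24 after subtracting the median of chromosome 10, which was 0.41. Plxnb3 was at 0.0141 FPKM in B16/BL6 and 0.0312 FPKM in B16, the ratio that 1 fragment against 2 gives. Among neuropilins, Nrp2 was at 97.3 FPKM in B16/BL6 and 76.7 FPKM in B16, and Nrp1 at 8.88 FPKM in B16/BL6 and 9.01 FPKM in B16. Nrp2 therefore made up most of the neuropilin sum in both, 91.6% in B16/BL6 and 89.5% in B16.

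Dpysl3 and Dpysl2 differed in opposite directions. Dpysl3, which encodes collapsin response mediator protein 4 (chromosome 18, 43320979 to 43438286 in mm10), was at 0.277 FPKM in B16/BL6 and 22.6 FPKM in B16, 81.6-fold lower. Dpysl2, which encodes protein 2 of that group and binds tubulin (chromosome 14, 66802864 to 66911041), was at 15.3 FPKM in B16/BL6 and 6.15 FPKM in B16, a ratio of 2.48. Dpysl5 was at 0.256 FPKM in B16/BL6 and 1.19 FPKM in B16, a difference of -0.80, which was -1.21 on the TPM scale, and Dpysl4 was listed at 0 in both. Dpysl3 made up 1.75% of the family sum in B16/BL6 and 75.5% in B16. The sum itself was 15.8 FPKM in B16/BL6 and 29.9 FPKM in B16. The related Crmp1 was at 2.92 FPKM in B16/BL6 and 2.41 FPKM in B16.

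**Figure D4:**
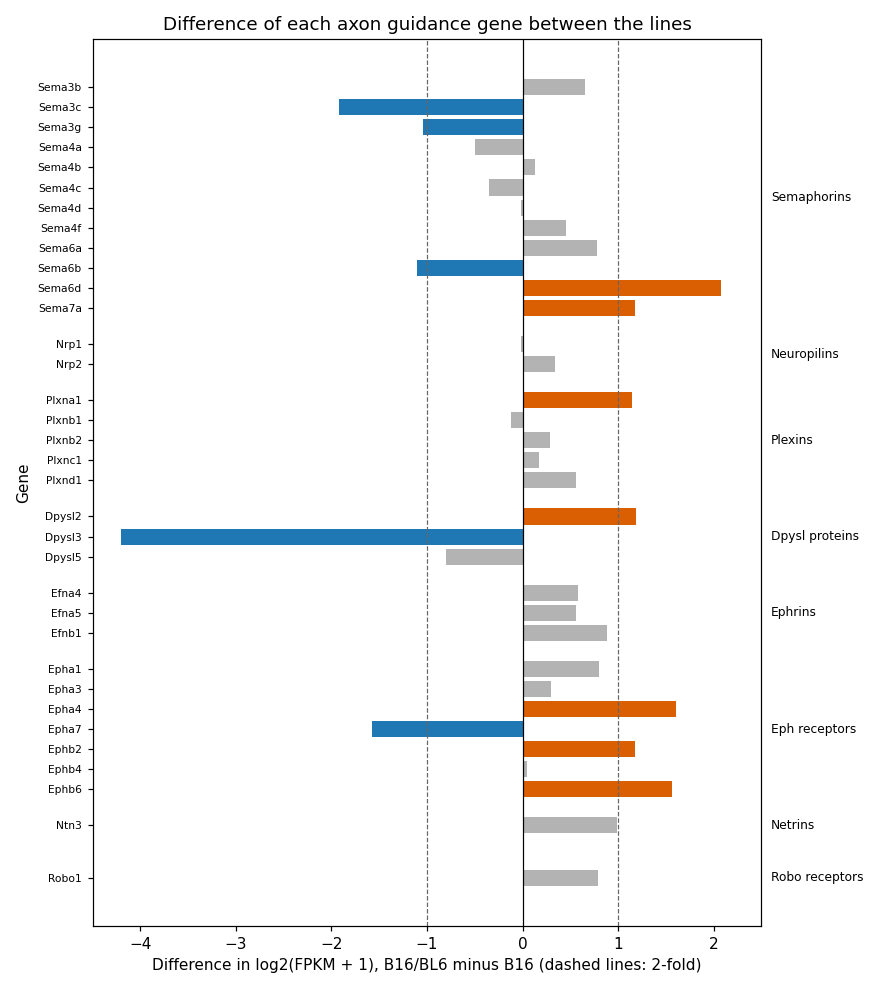
Bars give the difference in log2(FPKM + 1), B16/BL6 minus B16, for each guidance gene at 1 FPKM or more, ordered by family, with genes at least 2-fold higher in orange, at least 2-fold lower in blue and the rest in grey. Dpysl3 has the longest bar, at -4.21, and Sema6d the longest one to the right, at 2.08.

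Eph receptor genes passed 2-fold in both directions. Of 14 Eph genes, 7 reached 1 FPKM, of which 3 passed 2-fold toward B16/BL6 and 1 toward B16. Among all genes at 1 FPKM or more, 3.31% were at least 2-fold higher and 3.16% at least 2-fold lower. Of those averaging under 5 FPKM, the range of the Eph genes that passed, 13.8% passed in either direction. Epha1, Epha4, Ephb2 and Ephb6 reached 1 FPKM in B16/BL6 only and Epha7 in B16 only, so the minimum bears on their directions. Epha3 and Ephb4 reached it in both libraries and were within 2-fold, and the difference of Ephb4 turned below 0 on the TPM scale (-0.12) and after upper-quartile scaling. Epha4, a receptor for ephrins of both classes (chromosome 1, 77367182 to 77515107 in mm10), was at 2.19 FPKM in B16/BL6 and 0.0444 FPKM in B16, a ratio of 49.2, from about 150 fragments in B16/BL6 and 2.8 in B16. Epha7 (chromosome 4, 28813066 to 28967503 in mm10) had the opposite order, listed at 0 in B16/BL6 and at 1.97 FPKM in B16, about 130 fragments. The pair thus differed as near absence in B16 for Epha4 and as a listed 0 in B16/BL6 for Epha7. Such a listed 0 may reflect a failed estimate.

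Among EphB genes, Ephb6, whose kinase domain is inactive, was at 3.997 FPKM in B16/BL6 and 0.688 FPKM in B16, a ratio of 5.81. Ephb2, a receptor for ephrin-B ligands, was at 2.87 FPKM in B16/BL6 and 0.713 FPKM in B16, a ratio of 4.03. Ephb4, the receptor for ephrin-B2, was at 12.7 FPKM in B16/BL6 and 12.3 FPKM in B16. The EphB genes with a 2-fold difference were therefore not the abundant one, and the share of Ephb4 in the EphB sum was 64.6% in B16/BL6 and 89.8% in B16.

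The most abundant Eph receptor was Epha3, a receptor for ephrin-A5, at 22.4 FPKM in B16/BL6 and 17.97 FPKM in B16. Epha1 was at 1.37 FPKM in B16/BL6 and 0.355 FPKM in B16, a ratio of 3.85 and a difference of 0.80, with 6.01% of its exonic bases shared with the abundant neighbour Zyx. Epha2 was at 0.242 FPKM in B16/BL6 and 0.146 FPKM in B16. Epha5 and Ephb3 were below 0.1 FPKM in both libraries, and Epha6, Epha8, Epha10 and Ephb1 were listed at 0 in both.

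Of 8 ephrin genes, 3 reached 1 FPKM, and all 3 had differences above 0 under each of the 5 other pseudocounts and scalings tried. As reported 0 passed 2-fold, whereas Efnb1 passed it with a pseudocount of 0.1 (1.16). Efna5, the most abundant, was at 11.8 FPKM in B16/BL6 and 7.73 FPKM in B16. Efna4 was at 4.02 FPKM in B16/BL6 and 2.35 FPKM in B16, with 10.5% of its exonic bases shared with another annotated gene. Efnb1, a transmembrane ligand of EphB receptors, was at 4.12 FPKM in B16/BL6 and 1.78 FPKM in B16, a ratio of 2.31 and a difference of 0.88. The other 5 ephrins were below 1 FPKM. Efna1 was at 0.662 FPKM in B16/BL6 and 0.284 FPKM in B16, and Efna3 at 0.565 FPKM in B16/BL6 and 0.891 FPKM in B16. Efna2 was listed at 0 in B16/BL6 and was at 0.518 FPKM in B16. Efnb2, the ligand of Ephb4, was at 0.0399 FPKM in B16/BL6 and 0.220 FPKM in B16, and Efnb3 at 0.136 FPKM in B16/BL6 and 0.512 FPKM in B16. Among ephrin-B ligands, Efnb1 thus held 95.9% of the sum in B16/BL6 and 70.9% in B16.

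Robo1, the main Slit receptor gene detected, was at 16.7 FPKM in B16/BL6 and 9.25 FPKM in B16, a difference of 0.79. Robo2 was at 0.0209 FPKM in B16/BL6 and 0.0693 FPKM in B16, the ratio that 1 fragment against 3 gives, and Robo3 and Robo4 were listed at 0. Of the Slit ligands, Slit2 was at 0.105 FPKM in B16/BL6 and 0.629 FPKM in B16, and Slit1 and Slit3 were listed at 0. Among netrins, Ntn3 was at 1.63 FPKM in B16/BL6 and 0.328 FPKM in B16, a ratio of 4.98. Its difference of 0.99 was just under 2-fold and passed it on the TPM scale (1.24). Ntn4 was at 0.0745 FPKM in B16/BL6 and 0.164 FPKM in B16, Ntn1 was listed at 0 in B16/BL6, against 0.0164 FPKM in B16, and Ntn5 was listed at 0 in both. Robo1 and Ntn3 were thus higher in B16/BL6 and Slit2 lower, each without passing 2-fold on the log2(FPKM + 1) scale.

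Guidance genes below 1 FPKM were mostly lower in B16/BL6. Of the 21 that were detected in either library and below 1 FPKM in both, 18 were lower and 3 higher by any amount, where 54.3% of all 3224 such genes were lower. The 3 higher ones were Efna1, Epha2 and Ephb3. The values of several of these genes rest on single fragments, as given above, and the 34 genes at 1 FPKM or more had 23 differences above 0 and 11 below.

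Of the genes on 5 lists of partners and effectors, 76 reached 1 FPKM and 5 of these passed 2-fold, or 6.58%, near the 6.46% of all genes at that level. Of 15 netrin receptors and other guidance molecules, 7 reached 1 FPKM, 2 passed 2-fold toward B16/BL6 and 0 toward B16, and the median was 0.63. The higher ones were Unc5c, a netrin receptor, at 38.0 FPKM in B16/BL6 and 15.1 FPKM in B16, and Rgma, a ligand of neogenin, at 18.9 FPKM in B16/BL6 and 6.70 FPKM in B16. The netrin receptor Unc5b was at 6.45 FPKM in B16/BL6 and 3.82 FPKM in B16, and Flrt3, a membrane protein that binds Unc5 receptors, at 3.09 FPKM in B16/BL6 and 1.22 FPKM in B16. The list's median stayed above that of all genes under the scalings tried, by 0.38 to 0.68.

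Of 24 partners and effectors of semaphorins and plexins, 20 reached 1 FPKM, 0 were higher and 2 lower, with a median of -0.11. The shares over all genes at 1 FPKM or more were 3.31% higher and 3.16% lower. The lower ones were L1cam, a partner of neuropilin-1, at 4.70 FPKM in B16/BL6 and 10.8 FPKM in B16, and Rras, a small GTPase on which plexins act, at 10.0 FPKM in B16/BL6 and 21.6 FPKM in B16. Neither passed 2-fold with a pseudocount of 5. With a pseudocount of 0.1 or on the TPM scale, 3 of the 20 were lower. Rnd1, a GTPase that binds plexins, was at 0.411 FPKM in B16/BL6 and 1.59 FPKM in B16, and the actin-oxidising enzyme gene Mical3 at 15.5 FPKM in B16/BL6 and 9.61 FPKM in B16.

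Of 23 Eph and ephrin effectors, 18 reached 1 FPKM and 0 passed 2-fold in either direction, with 12 below 0 and a median of -0.31. Set against the median of all genes, this was -0.32 as reported and -0.33 on the TPM scale. With a pseudocount of 0.1 or on the TPM scale, 1 of the 18 passed 2-fold toward B16. The largest differences were those of the phosphoinositide 3-kinase subunit gene Pik3r1 (4.34 FPKM in B16/BL6 and 9.08 FPKM in B16) and the Rac activator gene Tiam1 (6.57 FPKM in B16/BL6 and 10.7 FPKM in B16). Adam10, a protease that cleaves ephrins, was at 51.1 FPKM in B16/BL6 and 77.7 FPKM in B16, and the phosphatase gene Ptpn11 at 50.5 FPKM in B16/BL6 and 75.5 FPKM in B16.

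Of 18 Slit and Robo effectors, 16 reached 1 FPKM, 1 was higher and 0 lower, with a median of 0.01. The higher one was Srgap1, a GTPase-activating protein that binds Robo1, at 5.92 FPKM in B16/BL6 and 2.01 FPKM in B16, and it did not pass 2-fold with a pseudocount of 5 or after subtracting the median of its chromosome. Its relative Srgap2 was at 6.82 FPKM in B16/BL6 and 10.6 FPKM in B16, the actin regulator gene Cap1 at 66.8 FPKM in B16/BL6 and 126 FPKM in B16, and Evl at 74.9 FPKM in B16/BL6 and 47.5 FPKM in B16. Of 16 small GTPases and cytoskeletal genes, 15 reached 1 FPKM and 0 passed 2-fold, with a median of 0.04. Members included Rhob at 55.1 FPKM in B16/BL6 and 34.9 FPKM in B16, Rhoa at 166 FPKM in B16/BL6 and 127 FPKM in B16, Pak4 at 32.8 FPKM in B16/BL6 and 22.9 FPKM in B16, and Rock1 at 7.66 FPKM in B16/BL6 and 11.5 FPKM in B16.

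**Figure D5:**
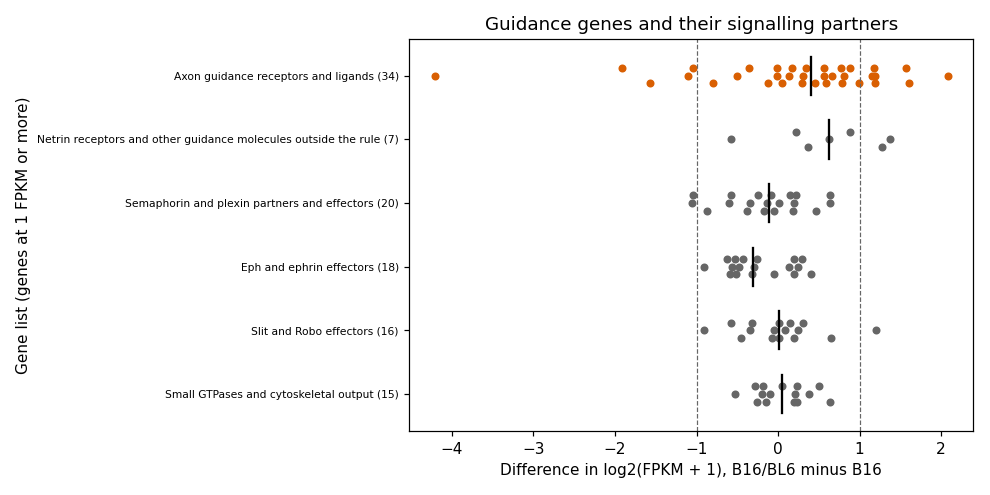
Each point is the difference in log2(FPKM + 1), B16/BL6 minus B16, of a gene at 1 FPKM or more, for the 34 axon guidance genes (orange) and 5 lists of partners and effectors (grey), with list medians as vertical bars and dashed lines at 2-fold. The guidance genes spread from -4.21 to 2.08, and 5 of the 76 partner and effector genes (6.58%) lie beyond the dashed lines, beside 6.46% of all genes at that level.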

How the data were processed

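Cultured B16/BL6 and B16 cells gave 1 RNA-seq library each, made with a stranded mRNA kit per the labels' protocols. Per the file headers, the authors deposited FPKM, and each gene symbol has 1 value. Per the submitters' processing notes, Cufflinks 2.2.1, TopHat2 2.0.13, SAMtools 0.1.19, Bowtie2 2.2.3 and mm10 were used, without stated roles. Neither annotation, library scaling, strand setting nor read counts are stated, so overlapping genes may share reads.

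From the FPKM, differences in log2(FPKM + 1) were computed with Python 3.11.15 and pandas 2.3.3, for genes that reached 1 FPKM in either library. With 1 library per line no test was possible. Since a listed 0 may reflect a failed estimate, ratios against 0 are omitted. Depth was read from low values: of 379 genes detected in both libraries at less than 0.1 FPKM, 155 shared the ratio 0.906 (within 0.5%), and 86.8% had it multiplied by a fraction of integers no larger than 5. Absolute depth was the median over genes under 0.2 FPKM with a single GENCODE M21 transcript over 1500 bases, among estimates of 8000000 to 14000000 fragments. Fragment numbers derived from it use the longest coding transcript and are rough, so no interval was formed. Positions and promoters came from RefSeq (GRCm38.p6), with the first promoter listed per gene, for 57 of the 68 guidance genes.

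Every guidance gene at 1 FPKM or more is named, with scarcer ones beside them, and of each of the 5 lists the 4 genes with the largest differences. Crmp1 and the genes near Sema3c were named after their values were seen. The rule and the lists were chosen with earlier results of these data known. Alternatives covered the pseudocount, the minimum, the scaling and chromosome medians. The shares by level and those for a minimum in both libraries were added after seeing the data. Part of the Schwann cell marker list is not reported here.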

Additional observations from a re-analysis of the deposited data

How the results depend on the processing

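The counts of guidance genes at least 2-fold higher (7) and lower (5) in B16/BL6 were within 1.5 times of these values with a pseudocount of 0.1, without a minimum, on the TPM scale, after upper-quartile scaling and after subtracting chromosome medians. A pseudocount of 5 left 1 higher (Plxna1) and 1 lower (Dpysl3), and a minimum of 5 FPKM left 2 higher and 2 lower, since fewer genes were compared. The median difference of 0.40 was 0.43 with a pseudocount of 0.1, 0.29 with a pseudocount of 5, 0 without a minimum, 0.30 with a minimum of 5 FPKM, 0.25 on the TPM scale, 0.35 after upper-quartile scaling and 0.36 after subtracting chromosome medians. No guidance gene at least 2-fold different changed direction under these alternatives. Values below about 0.1 FPKM rest on a few fragments. No paired analysis was possible because each line had 1 library, and no library could be left out.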

Other observations

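Other guidance genes also lie near each other. Ephb6 and Epha1 lie within 0.769 megabases of chromosome 6 (41603834 to 42373314 in mm10), and both were higher in B16/BL6 by their FPKM ratios (5.81 and 3.85). The 4 other genes at 1 FPKM or more in that span had a median difference of 0.66. Fam131b was at 6.49 FPKM in B16/BL6 and 0.470 FPKM in B16, Zyx, a focal adhesion protein gene, at 203 FPKM in B16/BL6 and 121 FPKM in B16, and Casp2 at 39.2 FPKM in B16/BL6 and 26.1 FPKM in B16. Gstk1 had the opposite order, at 2.96 FPKM in B16/BL6 and 6.27 FPKM in B16. The median over chromosome 6 was 0.18.

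The ephrin genes Efna1, Efna3 and Efna4 adjoin each other on chromosome 3 with no other symbol of the files between them. They differed in direction, with ratios of B16/BL6 to B16 of 2.33, 0.634 and 1.71. Efna1 and Efna3 were below 1 FPKM in both libraries, so their ratios rest on few fragments. By the rough estimates, Efna1 had about 12 in B16/BL6 and 4.7 in B16, and Efna3 about 15 in B16/BL6 and 21 in B16. Sema3b and Sema3f lie within 0.113 megabases of chromosome 9. Sema3b was at 62.0 FPKM in B16/BL6 and 39.0 FPKM in B16, while Hyal1, a hyaluronidase gene just before it, was at 2.21 FPKM in B16/BL6 and 12.7 FPKM in B16, a difference of -2.09. These genes were chosen for their position after their values were seen.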
